A study of Mus musculus with 8 samples.

Results

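The 9 genes described here encode the transcription factors that set up and run the skeletal muscle programme, namely the MyoD family (Myod1, Myf5, Myf6 and Myog), the MEF2 family members Mef2a, Mef2c and Mef2d, the TEAD family member Tead4, and Pax7. They were taken by symbol from a table of 23420 genes, and all 9 passed the filter on low counts that left 13167 genes for testing. The measurements are RNA-seq counts from C2C12, a line of mouse myoblasts that leave the cell cycle and fuse into myotubes when serum is lowered. Cells that overexpressed AUF1 were set against cells labelled WT, and from each of these the total RNA and the RNA of heavy polysomes (mRNA loaded with many ribosomes) were sequenced, with 2 libraries in each of the 4 groups. Cells were first grown with 10% fetal bovine serum and collected after 48 h in 2% horse serum, so every group was in differentiation medium. The labels state neither whether the WT cells carried an empty vector, nor whether the AUF1 cells were a pool or 1 clone, nor which AUF1 isoform was expressed. Nor do they say that both libraries of a group were separate cultures, so p-values reflect only how far such libraries lay apart, and this may be technical.

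In developing and regenerating muscle these factors act in order. Pax7 marks the satellite cell, the stem cell of muscle; Myf5 and Myod1 commit its progeny to the myoblast fate; Myog drives the step from myoblast to myotube; and Myf6 is best known from maturing fibres. The MyoD family proteins are basic helix-loop-helix factors that pair with E proteins and bind E boxes, MEF2 proteins bind an A/T-rich site and act together with them, and Tead4, itself a target of MyoD and myogenin, binds the MCAT element of muscle genes. AUF1, the product of Hnrnpd, binds AU-rich stretches of mRNAs and can change how long an mRNA lasts and how well it is translated. The design text names control of mRNA stability and translation in muscle regeneration as the question.

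The Myog promoter is shown because Myog was the most abundant of the 9 factors, and because it is a textbook case of a gene read by both the MyoD and the MEF2 proteins. The 250 bases before the transcript start in RefSeq (build mm10, chr1:134289754-134290003, plus strand) read 5′ to 3′ as follows, with capitals for the E boxes and for the MEF2-type site.

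Myog promoter: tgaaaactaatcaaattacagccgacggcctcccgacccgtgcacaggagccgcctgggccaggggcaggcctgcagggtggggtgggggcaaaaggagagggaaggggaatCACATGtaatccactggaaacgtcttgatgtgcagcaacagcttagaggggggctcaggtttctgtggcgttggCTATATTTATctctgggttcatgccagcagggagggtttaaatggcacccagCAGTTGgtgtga

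The E boxes (searched as CANNTG on both strands) began 138 and 12 bases before the start and the MEF2-type site 64 bases before it, with no overlap between them. The GENCODE start of Myog, 134289989, lies inside this RefSeq window, so the E box nearest the RefSeq start falls within the gene as GENCODE places it. The MEF2-type site did not match the strict MEF2 consensus and was found with the last base of the consensus left free, a search added after the data were seen. RefSeq promoters were matched for 6 of the 9 factors, Myf5, Myog, Mef2a, Mef2c, Mef2d and Pax7. An E box stood in a promoter of 2 of these 6, Myog and Mef2c, against 69.3% of 27018 genes with promoter windows of this length. The relaxed MEF2 site stood in the same 2, against 8.14% of all genes, and the strict one in 0 of 6, against 3.41%. The MCAT element (CATTCC, both strands), which TEAD proteins bind, stood in 1 of 6, Mef2c, against 14.4% of genes. These matches describe letters in these windows and were not tested as binding sites.

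AU-rich pentamers (ATTTA on the sense strand of the 3′ untranslated region) were counted because AUF1 binds such stretches. This search too was added after the data were seen. The longest annotated 3′ untranslated region of each gene in GENCODE M21 (mm10) was used. Mef2a and Mef2d were the 2 factors with the longer octamer TTATTTAT, which contains the pentamer and was present in 13.4% of 20996 genes. Their octamers, and the single pentamer of Myog, are shown with capitals for the motif.

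Mef2a (chr7:67233941-67233970, minus strand): attctgctgaaTTATTTATataagccaaag
Mef2a (chr7:67232393-67232422, minus strand): ccctttcatcaTTATTTATgcatgttcatg
Mef2d (chr3:88171557-88171586, plus strand): tctcttgctcgTTATTTATttgtttggaga
Myog (chr1:134291964-134291993, plus strand): cccagcgagggaATTTAgctgactccttaa

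The factors differed widely in this feature. Tead4 held 0 pentamers in 1223 bases, Myog 1 in 753 bases, Mef2d 2 in 3443 bases, Myod1 2 in 705 bases and Pax7 3 in 3725 bases. Myf6 held 4 in 501 bases, Myf5 6 in 1112 bases, Mef2c 11 in 4449 bases and Mef2a 13 in 3705 bases. The median over all genes was 1.23 pentamers per kb. Myog with 1.33 per kb lay near that median, and Mef2d with 0.581 and Pax7 with 0.805 per kb lay below it, as did Tead4. Myf5 with 5.40 per kb and Myf6 with 7.98 per kb exceeded 93.7% and 97.8% of genes. Mef2a with 3.51, Myod1 with 2.84 and Mef2c with 2.47 per kb exceeded 83.6%, 76.4% and 71.7% of genes. A link between these densities and the fold changes below was not tested.

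Libraries held between 25281224 and 34917660 counts assigned to genes. Hnrnpd, the gene of the overexpressed protein, stood at 448 and 397 CPM in AUF1 total RNA, against 64.2 and 99.6 CPM in WT total RNA (CPM, a gene's counts relative to its library's total, with totals adjusted by the trimmed mean of M-values). On polysomes it stood at 549 and 427 CPM in AUF1 cells, against 106 and 131 CPM in WT cells. The labels of AUF1 and WT thus held in all 8 libraries, while those of the fractions cannot be checked by Hnrnpd. Its exons share 385 bp (5.235% of their length) with the antisense gene Gm17092. The replicate numbers also split the libraries: the first principal component of log2 CPM, with 44.6% of the variance, parted replicate 1 from replicate 2 in all 4 groups, and the second, with 37.1%, parted AUF1 from WT. The labels do not say what a number shares, so it was left out of the main model, and values within each number, and from a model that adds it as a block, are given beside it where they change a call. Summed levels of 6 markers of skeletal muscle cells (Myod1, Myog, Des, Cdh15, Acta1 and Chrna1) were 14973 to 22739 CPM in AUF1 total RNA. In WT total RNA they were 4279 to 4750 CPM. On polysomes their sum was 15411 to 15885 CPM in AUF1 cells and 3611 to 4529 CPM in WT cells. All 4 adipocyte markers and all 3 endothelial markers were at 1 CPM or less in every library. Summed fibroblast markers were 312 to 1068 CPM in AUF1 total RNA and 494 to 3754 CPM in WT total RNA. On polysomes they were 319 to 523 CPM in AUF1 cells and 519 to 2141 CPM in WT cells, so the ranges overlapped in both fractions. Summed markers of neurons or glia also overlapped in both fractions and were at most 103 CPM. Summed smooth muscle markers were 256 to 339 CPM in AUF1 total RNA and 186 to 212 CPM in WT total RNA, and on polysomes 214 to 239 CPM in AUF1 cells and 179 to 193 CPM in WT cells. Of the 4 osteoblast markers Sp7, Ibsp and Bglap were at 1 CPM or less in every library, so their sum was nearly all Runx2. This sum overlapped in total RNA, and on polysomes it was 85.2 to 88.0 CPM in AUF1 cells and 110 to 113 CPM in WT cells. Summed immune markers were at most 1.16 CPM in any library. Myod1 and Myog are themselves among the factors described here, and Des, Acta1 and Chrna1 recur in a list below. The muscle marker sum is therefore not separate from those results. In bulk RNA, more cells that have entered differentiation and more RNA per cell cannot be told apart. The part of this difference in muscle markers in the results below was not tested.

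**Figure D1:**
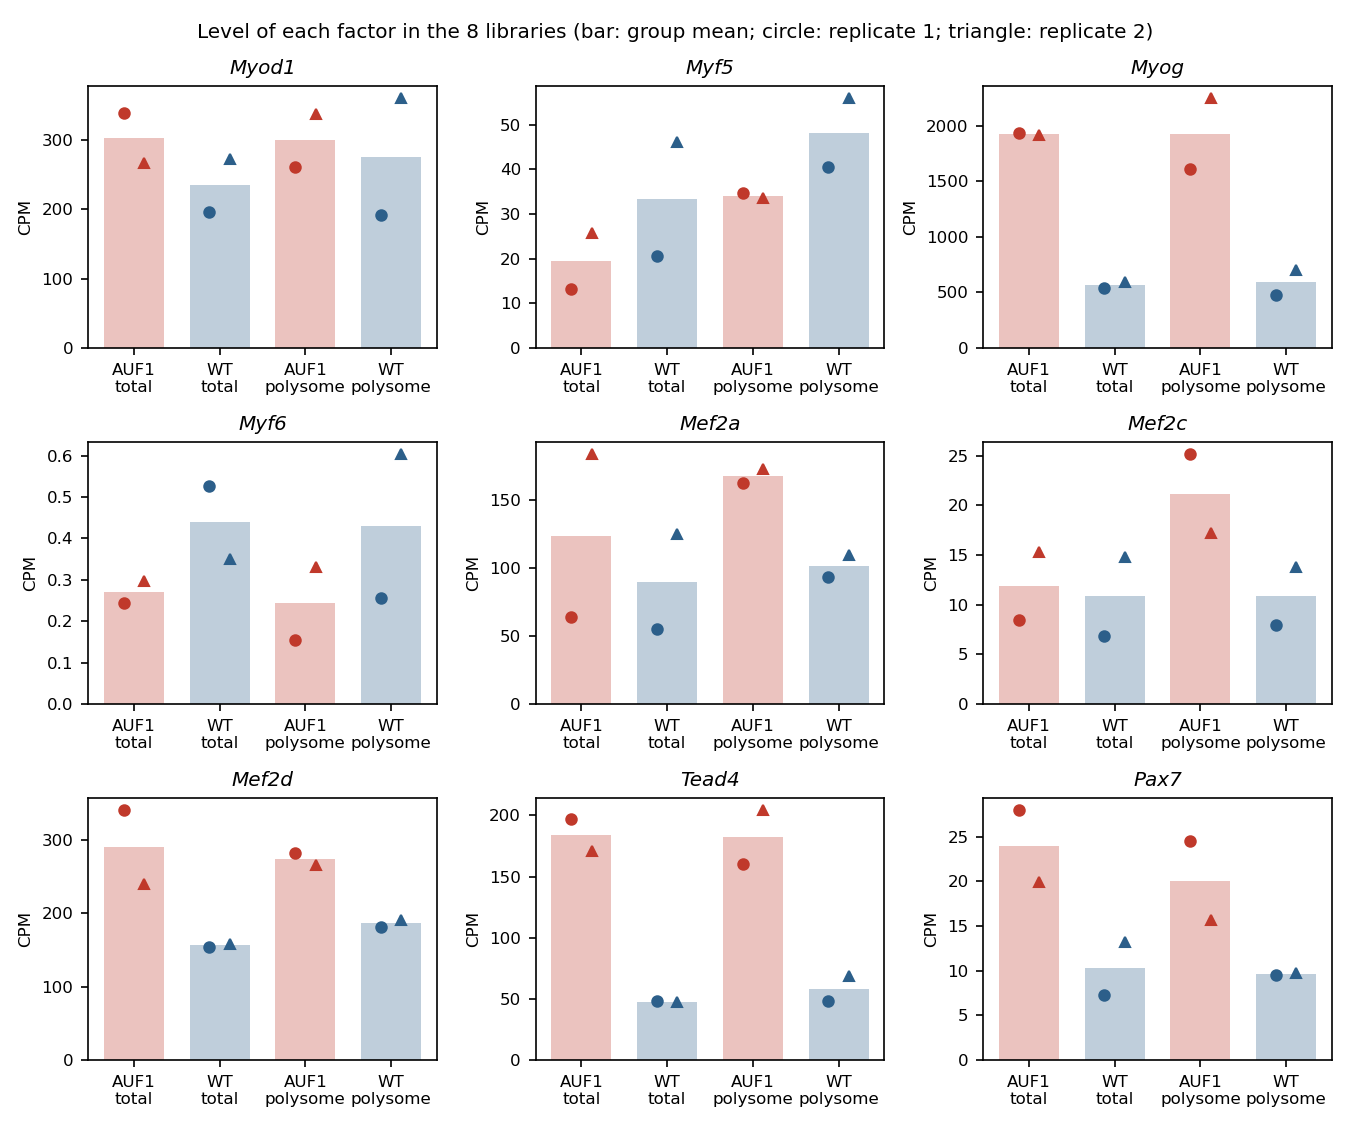
Level of each of the 9 factors in CPM in the 8 libraries, with AUF1 in red and WT in blue, group means as bars, replicate 1 as circles and replicate 2 as triangles. Myog and Tead4 stand well above WT in all 4 AUF1 libraries, while Myod1 overlaps between the cells in both fractions.

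Per kb of exon, Myog was by far the most abundant factor in all 4 groups and Myf6 the least. In AUF1 total RNA Myog stood at 1288 ± 8.81 CPM per kb and Myod1 at 162 ± 27.5 (SD, n = 2, as for all group values here). Tead4 at 51.1 ± 5.16 and Mef2d at 48.4 ± 11.8 followed with overlapping libraries, then Myf5 at 9.33 ± 4.23, Mef2a at 8.44 ± 5.77 and Pax7 at 4.09 ± 0.97, each overlapping its neighbour. Mef2c at 0.757 ± 0.31 and Myf6 at 0.214 ± 0.03 were last. In WT total RNA Myog stood at 379 ± 27.7 CPM per kb and Myod1 at 126 ± 28.9, followed by Mef2d at 26.1 ± 0.44. Myf5 at 16.0 ± 8.66 and Tead4 at 13.3 ± 0.06 came next with overlapping libraries, so that Tead4 was the third most abundant of the 9 in AUF1 cells and the fifth in WT cells. The order in each polysome fraction was the same as in the total RNA of the same cells. The exon lengths merge all annotated exons, which for Mef2a (14.681 kb) and Mef2c (15.715 kb) include stretches that a given transcript may not use, so the levels of these 2 per kb are lower limits for such transcripts.

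The question of the genotype comparison was which of the factors differed between AUF1 and WT cells. In total RNA 1 of the 9 passed an adjusted p of 0.05 in edgeR, Tead4, which was higher in AUF1 cells. Over all genes tested 0.82% were called higher and 0.197% lower. At an unadjusted p of 0.05, 4 of the 9 passed (Myog, Mef2d, Tead4 and Pax7), where 13.7% of all genes did, and with the block Myf5 joined them to make 5, where 27.6% did. DESeq2 called 2, Myog and Tead4, and 6.09% of all genes to which it gave an adjusted p. With the replicate number as a block, Myog and Mef2d joined Tead4, so 3 of 9 were higher and 0 lower, where 6.99% of all genes were called higher and 6.15% lower. Both AUF1 libraries lay above both WT libraries for 4 factors (Myog, Mef2d, Tead4 and Pax7) and below them for 1 (Myf6). The same held for 22.5% of all genes in the higher and 17.8% in the lower direction. Myf6 passed the filter on low counts only through WT libraries, so its lower values in AUF1 cells were favoured in advance. The median log2 fold change over the 9 was 0.46, against 0.00 over all genes.

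On heavy polysomes 0 of the 9 passed in edgeR, where 0.281% of all genes were called higher and 0.0684% lower. Here 3 of the 9 passed at an unadjusted p of 0.05 (Myog, Tead4 and Pax7), where 14.1% of all genes did, and with the block 5 did (also Mef2c and Mef2d), where 28.1% did. DESeq2 again called Myog and Tead4, and 5.8% of all genes. The block called these same 2 higher and 0 lower, against 6.7% of all genes higher and 6.33% lower. Both AUF1 libraries lay above both WT libraries for 6 factors (Myog, Mef2a, Mef2c, Mef2d, Tead4 and Pax7) and below them for 1 (Myf5), against 23.6% and 21.3% of all genes. The median log2 fold change over the 9 was 0.73, against 0.00 over all genes.

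**Figure D2:**
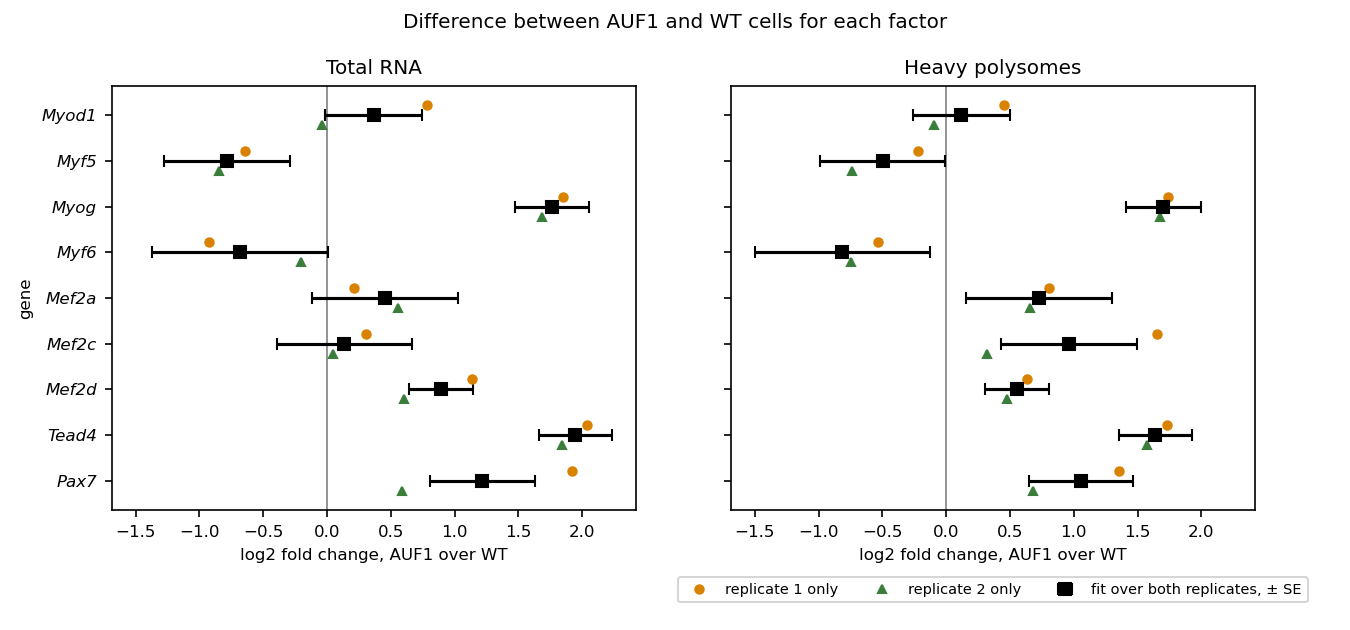
Log2 fold change of AUF1 over WT for each factor in total RNA (left) and on heavy polysomes (right), with black squares and bars for the edgeR estimate ± SE over both replicates, circles for replicate 1 alone and triangles for replicate 2 alone. Myog and Tead4 lie between 1.57 and 2.04 in every replicate of both fractions, while Myod1 lies on both sides of 0.

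Myog (mm10 chromosome 1, 134289989 to 134292548, plus strand), whose promoter is printed above, encodes myogenin, the factor of terminal differentiation. It stood at 1935 and 1916 CPM in AUF1 total RNA, against 537 and 596 CPM in WT total RNA. On polysomes it stood at 1607 and 2246 CPM in AUF1 cells, against 482 and 701 CPM in WT cells. Every AUF1 library was above every WT library of either fraction. On the log2 scale AUF1 exceeded WT by 1.76 ± 0.29 (SE) in total RNA and by 1.70 ± 0.29 on polysomes, or 3.40-fold and 3.26-fold. Neither was called in edgeR (adjusted p = 0.0577 and 0.0734), and the block called both (adjusted p = 0.00161 and 0.00206). Within the replicate numbers the log2 difference was 1.85 and 1.69 in total RNA and 1.74 and 1.68 on polysomes. With the block the call held without each of the 8 libraries in turn in both fractions, the highest adjusted p being 0.0448 in total RNA, without WT total replicate 1, and 0.0161 on polysomes, without AUF1 polysome replicate 2.

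Myod1 (chromosome 7, 46376474 to 46379099, plus strand), the commitment factor that can turn fibroblasts into muscle, overlapped between the cells in both fractions. It stood at 338 and 266 CPM in AUF1 total RNA, against 197 and 273 CPM in WT total RNA, with the highest value in AUF1 replicate 1. On polysomes it stood at 261 and 337 CPM in AUF1 cells, against 191 and 359 CPM in WT cells, and the WT libraries lay on both sides of the AUF1 ones. The log2 fold changes of 0.37 ± 0.38 in total RNA and 0.12 ± 0.38 on polysomes did not pass (edgeR adjusted p = 0.785 and 0.98). They differed in sign between the replicate numbers, at 0.78 and -0.04 in total RNA and 0.45 and -0.09 on polysomes. With the block the total RNA log2 fold change was 0.84 without AUF1 total replicate 2 and -0.15 without AUF1 total replicate 1.

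Myf5 (chromosome 10, 107482908 to 107486134, minus strand), the earliest of the family in the embryo, was the 1 well-counted factor with lower values in AUF1 cells. It stood at 13.2 and 25.7 CPM in AUF1 total RNA, against 20.7 and 46.2 CPM in WT total RNA, and at 34.7 and 33.5 CPM on AUF1 polysomes, against 40.5 and 55.9 CPM on WT polysomes. The total RNA groups overlapped and the polysome groups did not. Its log2 fold changes of -0.78 ± 0.50 and -0.50 ± 0.49 did not pass in either fit (edgeR adjusted p = 0.579 and 0.785), although all 4 within-replicate differences, from -0.85 to -0.22, had the same sign. Its total RNA estimate ran from -1.34 without AUF1 total replicate 2 or WT total replicate 1 to -0.09 without WT total replicate 2.

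Myf6 (chromosome 10, 107492853 to 107494737, minus strand), which lies close to Myf5 on the same strand and encodes MRF4, was barely present. It stood at 0.25 and 0.30 CPM in AUF1 total RNA, against 0.53 and 0.35 CPM in WT total RNA, and at 0.16 and 0.33 CPM on AUF1 polysomes, against 0.26 and 0.60 CPM on WT polysomes. These rest on 5 to 19 counts per library. Only WT libraries carried Myf6 over the filter on low counts, so its direction is no support for a fall in AUF1 cells. The log2 fold changes of -0.69 ± 0.69 in total RNA and -0.81 ± 0.69 on polysomes did not pass (edgeR adjusted p = 0.775 and 0.723), and each SE was close in size to its estimate.

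The make-up of the MyoD family was read from the levels per kb. Of the summed CPM per kb of its 4 members, Myog made up 87.3% and 89.2% in AUF1 total RNA, against 75.6% and 70.2% in WT total RNA. On polysomes it made up 87.2% and 88.4% in AUF1 cells, against 72.5% and 68.0% in WT cells. Myod1 made up 11.1% ± 1.64 in AUF1 total RNA and 24.02% ± 2.54 in WT total RNA, and Myf5 made up 0.642% ± 0.304 in AUF1 total RNA and 2.996% ± 1.29 in WT total RNA. The ratio of Myog to Myod1 per kb was 7.12 and 8.97 in AUF1 total RNA, against 3.40 and 2.72 in WT total RNA. On polysomes the ratio was 7.66 and 8.29 in AUF1 cells, against 3.14 and 2.43 in WT cells. The AUF1 and WT ranges did not overlap for any of these shares of Myog and Myod1 or for the ratio. With 2 libraries against 2 an exact two-sided permutation test cannot go below a p of 0.333, so they are given as descriptions. Shares of a family have a fixed sum, so a higher level of Myog lowers the Myod1 share without any fall in Myod1. The level of Myod1 itself overlapped between the cells in both fractions.

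**Figure D3:**
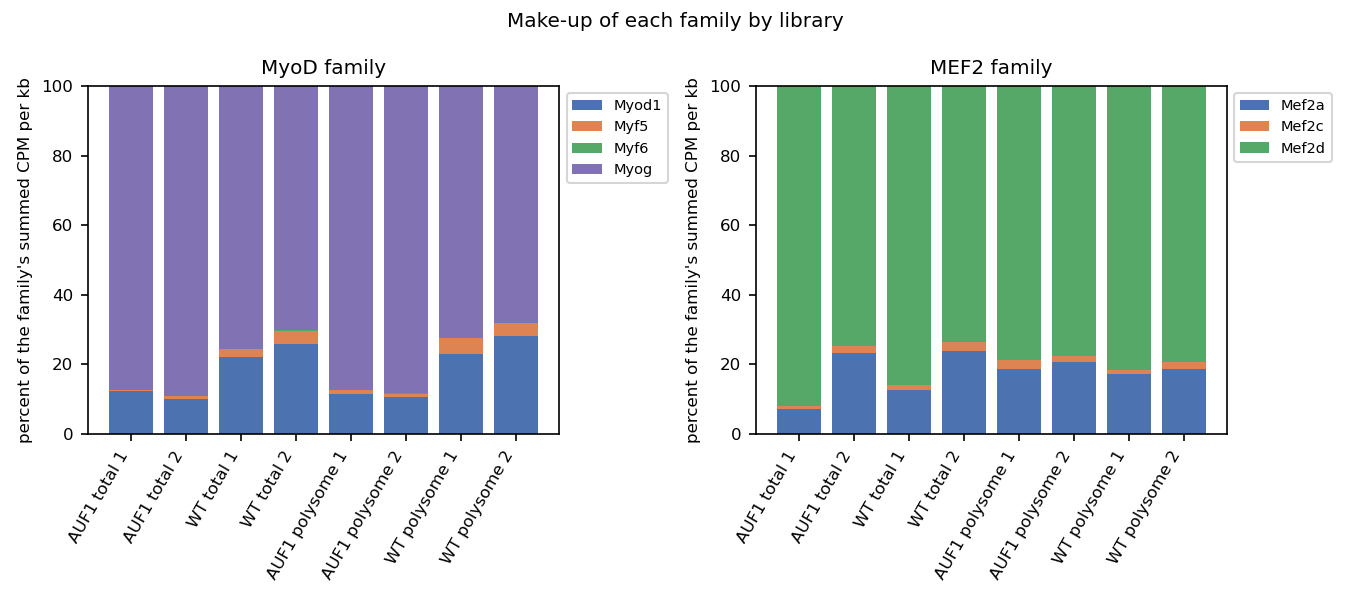
Share of each member in the summed CPM per kb of the MyoD family (left) and the MEF2 family (right), in percent, for the 8 libraries. Myog takes 87.2% to 89.2% of its family in the AUF1 libraries and 68.0% to 75.6% in the WT libraries, and the share of Mef2d spreads more within the total RNA groups than between the cells.

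Mef2d (chromosome 3, 88142372 to 88172086, plus strand), a widely expressed MEF2 gene with a muscle-specific splice form, was the most abundant MEF2 member per kb. It stood at 340 and 240 CPM in AUF1 total RNA, against 154 and 158 CPM in WT total RNA, and at 282 and 266 CPM on AUF1 polysomes, against 181 and 191 CPM on WT polysomes. All 4 AUF1 libraries were above all 4 WT libraries. The log2 fold change in total RNA was 0.89 ± 0.25, with 1.14 and 0.60 within the replicate numbers. It was not called in edgeR (adjusted p = 0.183), and the block called it (adjusted p = 0.0339). With the block the call was lost without either WT total library (adjusted p = 0.38 without replicate 1 and 0.179 without replicate 2), without AUF1 total replicate 1 (0.228), and without AUF1 polysome replicate 1 or 2 (0.0545 and 0.0763). On polysomes the log2 fold change of 0.56 ± 0.25 passed in neither fit (edgeR adjusted p = 0.4, and 0.143 with the block). The gene shares 531 bp, 8.87% of its exon length, with the antisense gene 1700113A16Rik, and the sources used here do not say whether the authors' counting used strand.

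Mef2a (chromosome 7, 67231163 to 67372858, minus strand), whose 3′ untranslated region held 2 of the octamers printed above, varied more between replicates than between cells in total RNA. It stood at 64.1 and 184 CPM in AUF1 total RNA, against 55.3 and 125 CPM in WT total RNA, so replicate 2 was higher than replicate 1 in both. On polysomes the replicates lay close together, at 163 and 173 CPM in AUF1 cells, against 93.3 and 110 CPM in WT cells, and the groups did not overlap. The log2 fold changes of 0.46 ± 0.57 in total RNA and 0.73 ± 0.57 on polysomes did not pass (edgeR adjusted p = 0.834 and 0.698), with within-replicate differences of 0.21 and 0.55, and of 0.80 and 0.66. Its exons share 302 bp (2.06% of their length) with Lysmd4 on the opposite strand.

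Mef2c (chromosome 13, 83504034 to 83667080, plus strand), the MEF2 gene most tied to differentiating muscle in the mouse embryo, was a minor member here. It stood at 8.48 and 15.3 CPM in AUF1 total RNA, against 6.84 and 14.8 CPM in WT total RNA, and the groups overlapped. On polysomes it stood at 25.1 and 17.2 CPM in AUF1 cells, against 7.95 and 13.8 CPM in WT cells, without overlap. The log2 fold changes of 0.14 ± 0.53 and 0.96 ± 0.53 did not pass (edgeR adjusted p = 0.963 and 0.513), and the polysome difference was 1.65 in replicate 1 and 0.32 in replicate 2. With the block the polysome log2 fold change ran from 0.25 without AUF1 polysome replicate 1 to 1.71 without AUF1 polysome replicate 2.

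In the MEF2 family the make-up spread more between the libraries of a total RNA group than between the cells. Mef2d made up 92.0% and 74.8% of the summed CPM per kb in AUF1 total RNA, against 86.0% and 73.6% in WT total RNA, so the ranges overlapped. On polysomes its share was 78.7% and 77.5% in AUF1 cells, against 81.5% and 79.3% in WT cells, so the polysome ranges did not overlap. Mef2c stayed between 0.875% and 2.67% in all 8 libraries.

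Tead4 (chromosome 6, 128224288 to 128300823, minus strand) encodes the TEAD factor that MyoD and myogenin switch on in differentiating myoblasts. It stood at 197 and 171 CPM in AUF1 total RNA, against 47.9 and 47.5 CPM in WT total RNA, and at 160 and 204 CPM on AUF1 polysomes, against 48.3 and 68.6 CPM on WT polysomes. All 4 AUF1 libraries were above all 4 WT libraries. The rise in total RNA, 1.95 ± 0.29 on the log2 scale or 3.85-fold, was called in edgeR (adjusted p = 0.0461) and by the block (adjusted p = 0.00124). It lost the call with relative log expression scaling of the libraries (adjusted p = 0.0579), where the log2 fold change was 1.89. Without the block it lost the call without any 1 of the 8 libraries, with adjusted p from 0.0965 (without WT polysome replicate 1) to 0.449 (without WT total replicate 1). With the block it kept the call without each of the 8, the highest adjusted p being 0.0388. On polysomes 1.64 ± 0.29, or 3.12-fold, was not called in edgeR (adjusted p = 0.0746) but was by the block (adjusted p = 0.00283).

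Pax7 (chromosome 4, 139737062 to 139833528, minus strand), the satellite cell factor that myoblasts lose as they differentiate, had higher values in the AUF1 libraries too. It stood at 28.0 and 20.0 CPM in AUF1 total RNA, against 7.33 and 13.2 CPM in WT total RNA, and at 24.5 and 15.6 CPM on AUF1 polysomes, against 9.54 and 9.74 CPM on WT polysomes. The groups did not overlap in either fraction. The log2 fold changes of 1.22 ± 0.41 and 1.06 ± 0.41 did not pass in edgeR (adjusted p = 0.257 and 0.319) or with the block (adjusted p = 0.0593 and 0.0868). With the block the log2 fold change in total RNA ran from 0.56 without WT total replicate 1 to 1.87 without WT total replicate 2. On polysomes it ran from 0.63 to 1.39 with a library left out. In each fraction some of these block fits did call Pax7, although each left 1 library in a group. The difference was larger in replicate 1, at 1.92 in total RNA and 1.35 on polysomes, than in replicate 2, at 0.59 and 0.68. Per kb, Pax7 stayed far below Myod1, with 4.09 ± 0.97 and 162 ± 27.5 CPM per kb in AUF1 total RNA.

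Whether AUF1 changed how much of each factor's mRNA sat on heavy polysomes was asked by the interaction of genotype and fraction. None of the 9 passed, none passed at an unadjusted p of 0.05 in either fit, and 0% of all genes were called with or without the block. Over all genes 0.122% had an unadjusted p under 0.05 in edgeR and 0.372% with the block, and DESeq2 called 0. The estimates were -0.06 ± 0.40 for Myog, -0.31 ± 0.39 for Tead4, -0.34 ± 0.35 for Mef2d and -0.24 ± 0.53 for Myod1. The largest was that of Mef2c, 0.83 ± 0.75, at 1.34 in replicate 1 and 0.27 in replicate 2. The SEs over the 9 were 0.35 to 0.97 on the log2 scale, and a p that misses the threshold does not show that loading was alike in the cells.

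The same holds within the cells. Between heavy polysome and total RNA 0 of the 9 passed in edgeR in AUF1 or WT cells, with or without the block, where 0% of all genes were called without the block and 0.0152% with it in either genotype. At an unadjusted p of 0.05, 0 of the 9 passed without the block, where 3.33% of all genes did in AUF1 cells and 2.76% in WT cells. With the block 2 did in AUF1 cells, Myf5 and Mef2c (edgeR adjusted p = 0.362 and 0.388), and 0 in WT cells, where 12.2% and 8.02% of all genes did. DESeq2 gave an adjusted p to 8 of the 9 in AUF1 cells and 6 in WT cells and called 0 of these, against 0.234% and 0.41% of all genes. Myog stood at a log2 difference of polysome over total of 0.00 ± 0.28 in AUF1 cells and 0.06 ± 0.28 in WT cells. Both polysome libraries lay above both total RNA libraries for Myf5 and Mef2c in AUF1 cells and for Mef2d and Tead4 in WT cells, and below them for 0 factors in either. Among all genes this was so for 8.86% (above) and 13.4% (below) in AUF1 cells and for 13% and 14.9% in WT cells.

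**Figure D4:**
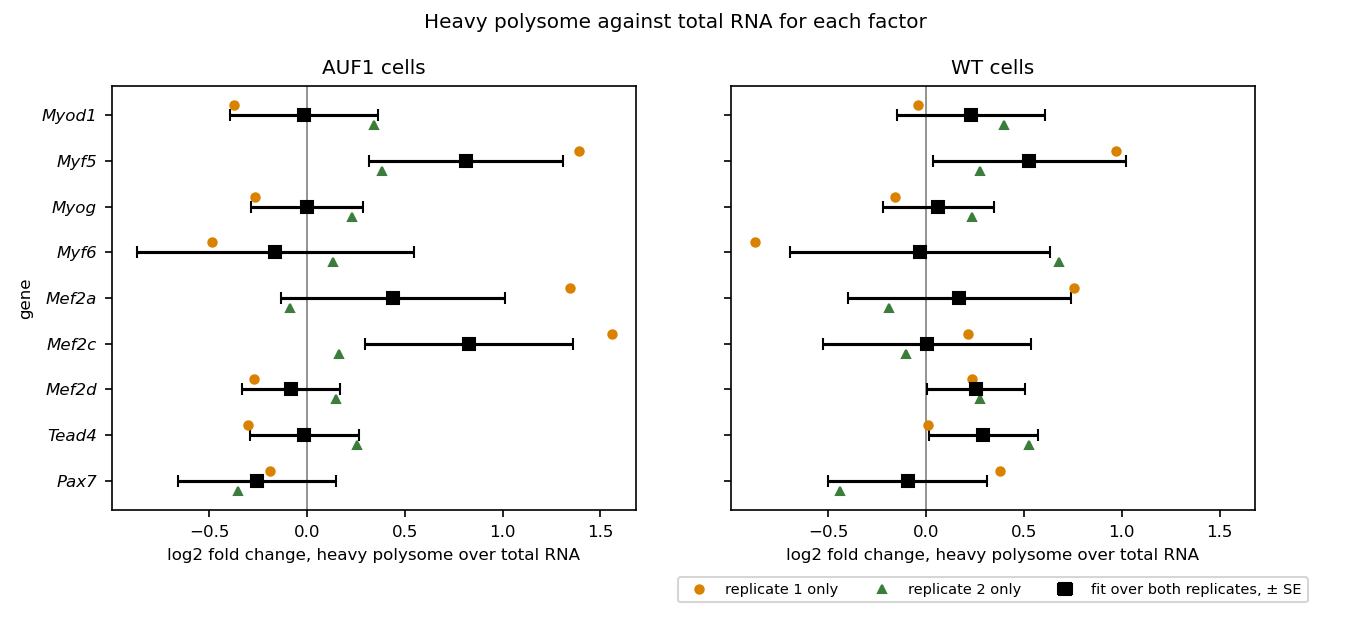
Log2 fold change of heavy polysome over total RNA for each factor in AUF1 cells (left) and WT cells (right), drawn as in the plot of the genotype differences. Myf5, Mef2a, Mef2c and Pax7 lie further to the right in replicate 1 than in replicate 2 in both cells, and Myog lies between -0.27 and 0.24 in each replicate.

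Myf5, Mef2a and Mef2c, which are described because their gaps between the replicate numbers in AUF1 cells were the widest, had a larger polysome over total difference in replicate 1 than in replicate 2 of both cells. The same was so for Pax7, at -0.19 and -0.35 in AUF1 cells and 0.38 and -0.44 in WT cells. For Mef2a the polysome over total difference was 1.35 in replicate 1 and -0.09 in replicate 2 of AUF1 cells, and 0.75 and -0.19 in WT cells. For Myf5 it was 1.39 and 0.38 in AUF1 cells and 0.97 and 0.27 in WT cells. For Mef2c it was 1.56 and 0.16 in AUF1 cells and 0.21 and -0.11 in WT cells. The same 3 genes were lower in replicate 1 than in replicate 2 of both total RNA groups, by a log2 CPM difference of -1.52 and -1.18 for Mef2a, -0.95 and -1.16 for Myf5 and -0.85 and -1.11 for Mef2c in AUF1 and WT cells. The median absolute difference between the replicates over all genes was 0.65 in AUF1 and 0.44 in WT total RNA.

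Genes whose level followed each factor most closely over the 8 libraries were sought among 9644 others, by the root mean square difference of log2 CPM after each gene's own mean was taken away. Tead4 was the gene nearest to Myog, at 0.112, followed by Pstpip1 at 0.12 and Ppa1 at 0.135. Nearest to Tead4 were Mb, the muscle oxygen store myoglobin, at 0.103, Myog at 0.112 and the small heat shock protein gene Hspb8 at 0.126. For comparison, log2 CPM of Myog and Tead4 had a standard deviation of 0.89 and 0.92 over these libraries. For the other 7 factors, none of the 9 stood among the 3 nearest genes. Myod1 was closest to the cell cycle factor E2f4 (0.0875), Mef2d to Arhgap44 (0.0858), Myf5 to the deadenylase subunit gene Cnot6 (0.115) and Mef2a to the nucleolar gene Nop58 (0.113). Pax7 was closest to Dync1i1 at 0.188 and Mef2c to Dkc1 at 0.239, and Myf6 to Map1lc3b at 0.153.

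The partners and inhibitors of the MyoD family, most but not all of them helix-loop-helix proteins, were measured for 21 of 23 listed genes. None passed in edgeR in either fraction. At an unadjusted p of 0.05, 1 was higher and 1 lower in total RNA and 0 higher and 2 lower on polysomes. The block called 0 higher and 3 lower in each fraction, and DESeq2 called 0 higher, with 1 lower in total RNA and 2 on polysomes. The counts of this and the following lists are to be read against those of all genes given above. These were 13.7% in total RNA and 14.1% on polysomes at an unadjusted p of 0.05 in both directions together, 6.09% and 5.8% in DESeq2, and 6.99% higher and 6.15% lower in total RNA and 6.7% and 6.33% on polysomes with the block. Id3, which sequesters E proteins from the MyoD family, stood at 46.3 and 75.0 CPM in AUF1 total RNA, against 337 and 296 CPM in WT total RNA. All its AUF1 libraries lay below all its WT libraries, with a log2 fold change of -2.38 ± 0.53 (edgeR adjusted p = 0.116, and 0.00227 with the block). On polysomes it was -2.45 ± 0.53 (adjusted p = 0.114, and 0.00207 with the block). The E protein genes Tcf3 at -0.13 and Tcf12 at -0.51 in total RNA did not pass in either fit. Mdfi, an inhibitor that holds MyoD proteins in the cytoplasm, stood at 0.62 and 0.48 CPM on AUF1 polysomes, against 2.56 and 2.32 CPM on WT polysomes, a difference of -2.14 ± 0.47 that passed with the block only (adjusted p = 0.117, and 0.015 with it). Other genes of this list had higher values in AUF1 cells. In total RNA Hes6 stood at a log2 difference of 0.93 ± 0.31 and Hey1 at 1.07 ± 0.46. On polysomes Hey1 stood at 1.04 ± 0.46 and Id4, at under 1 CPM in every library, at 1.43 ± 0.74. These passed in neither fit (edgeR adjusted p from 0.255 to 0.470, and from 0.0590 to 0.168 with the block). The list median was -0.36 in total RNA and -0.43 on polysomes, against 0.00 over all genes in each.

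All 24 listed MEF2 cofactors and repressors were measured, and 1 passed in edgeR in total RNA, where 3 were higher and 1 lower at an unadjusted p of 0.05 and DESeq2 called 2 higher and 1 lower. Mamstr, which encodes a coactivator of MEF2 in muscle, stood at 20.6 and 31.1 CPM in AUF1 total RNA, against 1.70 and 2.42 CPM in WT total RNA. It rose in total RNA by 3.64 ± 0.55 on the log2 scale (edgeR adjusted p = 0.0463, and 0.000256 with the block). On polysomes its 16.6 and 33.1 CPM in AUF1 cells, against 1.62 and 3.02 CPM in WT cells, gave 3.42 ± 0.54 (adjusted p = 0.0625, and 0.000268 with the block). The class IIa histone deacetylase gene Hdac7, whose product represses MEF2, stood at 108 and 127 CPM in AUF1 total RNA, against 236 and 310 CPM in WT total RNA, a log2 difference of -1.21 ± 0.32 that passed with the block only (adjusted p = 0.16, and 0.00613 with it). Sik1, a kinase that acts on class IIa deacetylases, stood at 263 and 195 CPM in AUF1 total RNA, against 98.9 and 95.2 CPM in WT total RNA (1.24 ± 0.33, adjusted p = 0.161, and 0.00788 with the block). The other class IIa genes of the list passed in neither fit in total RNA. Hdac9 stood at a log2 difference of 0.84 ± 0.39, Hdac4 at -0.38 and Hdac5 at -0.09. With the block 3 of the 24 were higher and 2 lower in each fraction. The list median was 0.02 in total RNA and -0.15 on polysomes. On polysomes 0 passed in edgeR, 4 were higher and 2 lower at an unadjusted p of 0.05, and DESeq2 called 1 higher and 1 lower.

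The genes around Tead4 were not called. Of 15 listed TEAD genes, cofactors and targets 14 were measured and 0 passed in either fraction in edgeR or DESeq2. At an unadjusted p of 0.05, 0 passed in total RNA and 1 on polysomes, the target Ankrd1, which stood at 1198 and 1374 CPM in AUF1 cells, against 599 and 663 CPM in WT cells (log2 difference 1.03 ± 0.39, adjusted p = 0.307, and 0.0306 with the block). The paralogues Tead1 at 0.26, Tead2 at 0.50 and Tead3 at -0.19 in total RNA passed in neither fit. Yap1, the coactivator of TEAD proteins, stood at -0.59 ± 0.36 and the kinase gene Lats2, which restrains it, at -0.55 ± 0.35.

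Of 27 listed upstream and satellite cell factors 20 were measured and 0 passed in edgeR, with 3 higher and 2 lower in total RNA and 2 higher and 2 lower on polysomes at an unadjusted p of 0.05. DESeq2 called 1 higher and 1 lower in each fraction. The block called 3 higher and 2 lower in total RNA and 3 higher and 3 lower on polysomes. Six5, a homeobox gene, stood at 8.51 and 8.77 CPM in AUF1 total RNA, against 22.5 and 21.98 CPM in WT total RNA (log2 difference -1.36 ± 0.28, adjusted p = 0.0961, and 0.00758 with the block). Its paralogue Six4, at -0.20 in total RNA, passed in neither fit. Barx2, a homeobox gene of muscle progenitors, stood at 2.07 and 1.48 CPM in AUF1 total RNA, against 0 and 0.11 CPM in WT total RNA, the WT values being 0 and 3 counts. Klf5, known as a partner of MyoD and MEF2 in C2C12 cells, stood at 75.4 and 129 CPM in AUF1 total RNA, against 38.0 and 53.3 CPM in WT total RNA (1.16 ± 0.35, adjusted p = 0.212, and 0.0141 with the block).

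Genes that MyoD, myogenin or MEF2 bind and switch on in differentiating muscle held the most calls of the 5 lists. All 26 listed were measured, and in total RNA 8 rose and 0 fell in edgeR, namely Ckm, Acta1, Myh3, Tnni1, Cdkn1a, Mybph, Myom1 and Klhl41. On polysomes 3 rose (Klhl41, Mybph and Tnni1) and 0 fell. With the block 22 were higher and 0 lower in each fraction. The list median was 2.64 in total RNA and 2.45 on polysomes, against 0.00 over all genes, and so exceeded the fold change of Myog itself. Tnni1, the slow troponin I gene, stood at 3174 and 2383 CPM in AUF1 total RNA, against 420 and 433 CPM in WT total RNA (2.70 ± 0.31, adjusted p = 0.0399). Klhl41, whose product supports the thin filament, stood at 179 and 209 CPM on AUF1 polysomes, against 21.0 and 26.7 CPM on WT polysomes (3.02 ± 0.36, adjusted p = 0.0461). Dmd at -0.14, Cdkn1c at -0.43, Rapsn at 0.27 and Musk at 0.56 in total RNA passed in neither fit. The genes were listed with earlier results of these data known, so the count is not independent evidence of its direction.

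**Figure D5:**
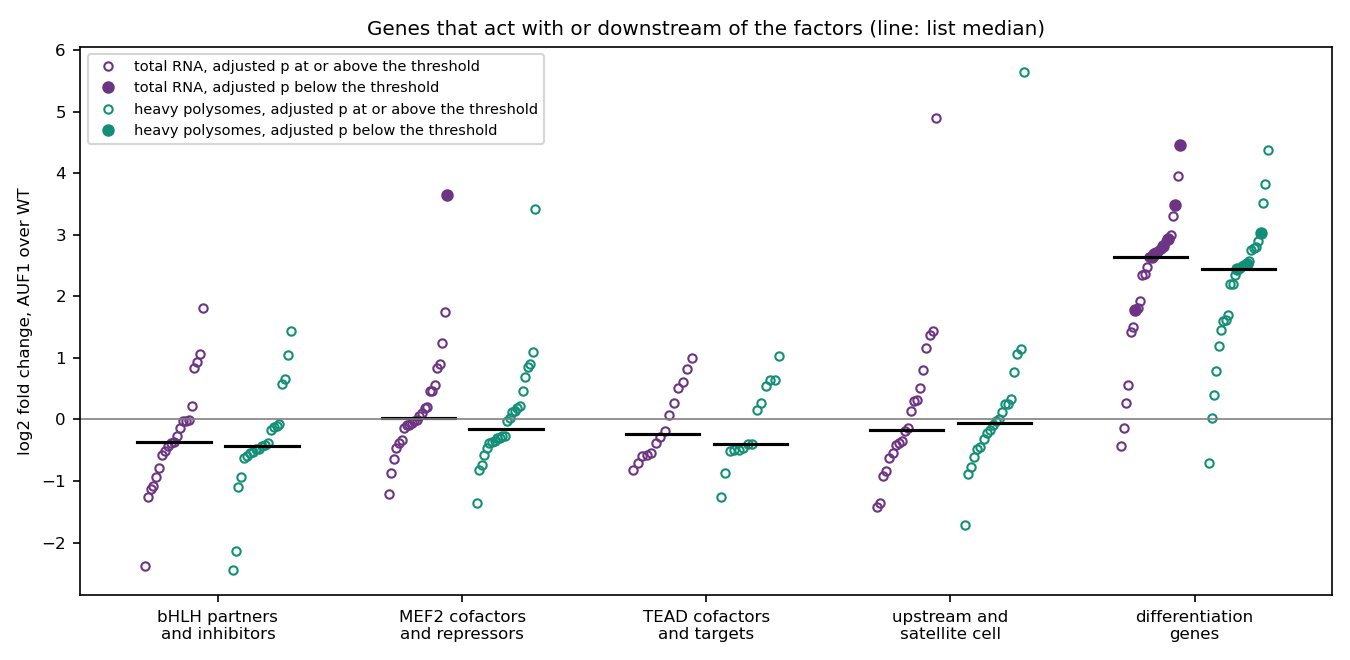
Log2 fold change of AUF1 over WT for each measured gene of the 5 lists in total RNA (purple) and on heavy polysomes (green), with filled circles for an adjusted p under 0.05 and a line at each list median. The differentiation genes have medians of 2.64 and 2.45, while the medians of the other 4 lists lie between -0.43 and 0.02.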

How the data were processed

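The authors deposited 1 table of raw counts, with gene symbols as lines and libraries as columns. Per the submitters' processing notes, cutadapt, Bowtie, Trimmomatic, STAR and SAMtools were used with the build mm10; the sources used here give no versions, no counting program or strand setting and no annotation. The 5 summary lines, of which reads outside any gene came to 6.04% to 7.23%, were left out. Libraries titled High were read as the heavy polysome fraction.

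Genes were filtered by filterByExpr and scaled by the trimmed mean of M-values, and edgeR 4.0.16 (R 4.3.3) fitted a quasi-likelihood model, with the 4 groups as coefficients, over all 8 libraries and 13167 genes. It gave 5 comparisons with two-sided tests, called at a Benjamini-Hochberg adjusted p under 0.05. SE is the fold change in log2 divided by the root of F. Other settings were the replicate number as a block, DESeq2 1.42.0, relative log expression scaling, no filter and each library left out. Same-numbered libraries deviated together (r of replicate differences between groups, 0.62 to 0.81 over genes), but the titles number replicates 1 and 2 where the descriptions call the second Rep3, and nothing says what a number shares.

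Positions, exon lengths and 3′ untranslated regions come from GENCODE M21 and promoters from RefSeq. The members and the 5 lists were chosen with earlier results of these data known. Named genes are the 9 members, Hnrnpd, up to 4 genes with the smallest p per list and comparison, and the 3 nearest genes of a member whose log2 CPM averaged at least 3. Tcf3, Tcf12, Hdac4, Hdac5, Hdac9, Tead1, Tead2, Six4, Dmd, Cdkn1c, Rapsn and Musk were named after their values were seen. Some genes of the upstream list are not reported here.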

Additional observations from a re-analysis of the deposited data

How the results depend on the processing

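The 2 libraries per group and the split by replicate number limit these results. Counting error matters most for the genes with few counts. These were Myf6 at 5 to 19, Id4 at 2 to 22, Barx2 at 0 to 3 in WT and Mdfi at 20 and 13 on AUF1 polysomes. With the replicate block the calls came to 1730 genes and 3 of the 9 factors in total RNA, 1716 genes and 2 factors on polysomes, and 2 genes in polysome against total RNA of either genotype. DESeq2 called 830 genes in total RNA, 809 on polysomes, 28 in AUF1 and 29 in WT polysome against total RNA, and 2 factors in each genotype comparison. Relative log expression scaling called 0 genes in total RNA and 0 on polysomes, and 0 factors. Without the expression filter, 2 factors were called in total RNA, Myog and Tead4 (edgeR adjusted p = 0.0472 and 0.0453). The share of all genes called in total RNA under this setting is not given here, so these 2 calls cannot be set against it. That setting also called 94 genes on polysomes and 1 gene in AUF1 polysome against total RNA. The narrow E box CAGCTG was in 0 of 6 promoters. The block changed no other call of a factor in these comparisons.

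When each library was left out in turn, with and without the block, calls in total RNA ranged from 0 to 2975 genes and 0 to 5 factors, and on polysomes from 0 to 3011 genes and 0 to 4 factors. Without the block every such fit called 0 genes in both; with it, total RNA gave the fewest, 329, without WT total replicate 1 and the most, 2975, without AUF1 total replicate 2, and polysomes gave the fewest, 592, without AUF1 polysome replicate 1 and the most, 3011, without AUF1 total replicate 1. The interaction ranged from 0 to 11 genes, WT polysome against total RNA from 0 to 70 and AUF1 polysome against total RNA from 0 to 1133, and the cause was not tested.

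Log2 fold changes of Myog and Tead4 between genotypes kept their sign under all 21 settings tried, as did those of Mef2d, Pax7, Myf5 and Myf6, although with a library left out Myf5 ranged from -1.34 to -0.09 in total RNA and -0.95 to -0.05 on polysomes, Myf6 from -1.41 to -0.03 and from -1.50 to -0.08, Pax7 from 0.56 to 1.87 and from 0.63 to 1.39, and Mef2d from 0.56 to 1.13 and from 0.42 to 0.69. The sign of Myf6 carries no weight, as it passed the filter on low counts only through WT libraries. Some other differences changed sign. In total RNA with a library left out, Myod1 ranged from -0.15 to 0.84, Mef2a from -0.50 to 1.16 and Mef2c from -0.41 to 0.80, and on polysomes Myod1 ranged from -0.27 to 0.65. The interaction ranged from -0.67 to 0.28 for Myod1, -0.41 to 0.84 for Myf5, -0.84 to 0.62 for Myf6, -0.31 to 0.24 for Myog, -0.44 to 1.22 for Mef2a and -0.86 to 0.38 for Pax7. AUF1 polysome against total RNA ranged from -0.48 to 0.47 for Myod1, -0.71 to 0.29 for Myf6, -0.22 to 0.22 for Myog, -0.13 to 1.39 for Mef2a, -0.32 to 0.21 for Mef2d, -0.27 to 0.23 for Tead4 and -0.69 to 0.19 for Pax7. There Myog stood at -0.024 with the block, Myod1 at 0.031 with DESeq2 and 0.029 with relative log expression scaling, and Tead4 at 0.027 and 0.026 with these. WT polysome against total RNA ranged from -0.30 to 0.62 for Myod1, -0.83 to 0.67 for Myf6, -0.24 to 0.31 for Myog, -0.29 to 0.88 for Mef2a, -0.45 to 0.67 for Mef2c and -0.60 to 0.59 for Pax7. Of 72 levels given as CPM, 7 moved by more than 1 SD under another scaling.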
